A study of Mus musculus with 12 samples.

Results

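The Eph receptors, ephrins, Slits, Robos, netrins and netrin receptors were taken as one set of 36 genes, chosen by family membership and found by gene symbol. Of these, 35 were found among the 51912 Ensembl gene identifiers of the count files, and Ntn3 was not analysed here. The data were 12 libraries of ribosomal RNA-depleted total RNA from mouse cerebral cortex at embryonic day 15.5, made by ClickSeq, in which cDNA ends are joined to the adaptor by click chemistry. They comprised 6 Emx1-Cre Arid1a conditional mutants and 6 controls, whose alleles are labelled only as control. Arid1a encodes a subunit of the BAF chromatin remodelling complex. Emx1-Cre is active in dorsal telencephalic progenitors and their excitatory neuron and glial descendants, and largely not in interneurons, vessels or incoming axons. A bulk cortex library therefore also holds RNA from cells that keep Arid1a. Litter 1 gave mutants 1 and 2, both female, and control 1, a female, with controls 2, 3 and 4, all male. Litter 2 gave mutants 3, 5 and 6, all female, mutant 4, a male, control 5, a male, and control 6, a female. All libraries carry the same batch number, and genotype overlapped in part with litter and sex, so both were terms of the model. The labels do not say that each library came from a separate embryo, and p-values measure the spread between these libraries.

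These genes encode the cues and receptors that steer growing axons and migrating neurons. Eph receptors are tyrosine kinases that bind ephrins on neighbouring cells: EphA receptors prefer the lipid-anchored ephrin-A ligands, EphB receptors prefer the transmembrane ephrin-B ligands, and signals can run in both directions. Secreted Slits repel axons through Robo receptors. Secreted netrins attract axons through Dcc and repel them when Unc5 receptors take part, and Draxin is a secreted cue that binds Dcc and netrins. In the developing cortex they are known for their part in corticofugal and callosal axon growth, in thalamocortical sorting and in neuron migration.

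Gene counts per library ran from 643197 to 3525121, and the difference in depth between genotypes did not pass an exact permutation test (two-sided p = 0.206). Levels are in CPM, the usual per-million scaling of a gene's count to its library's total, with totals adjusted by the trimmed-mean (TMM) method. Arid1a itself was measured at 396 to 525 CPM in mutants, median 443, and at 464 to 575 CPM in controls, median 503. Its log2 fold change was -0.30 (standard error (SE) 0.0958, edgeR quasi-likelihood test, adjusted p = 0.277), and the groups overlapped, so the gene counts did not separate the labels. A count over the whole gene does not measure a deleted exon by itself. Emx1, the gene whose promoter drives the Cre, was present in every library, at 24.02 to 77.5 CPM. Markers of striatum, which lies beneath the cortex, varied widely: 5 of 12 listed genes passed the filter on low counts, none was at 0 in all libraries, and the summed list level was 86.0 to 1151 CPM over the mutants and 51.9 to 1048 CPM over the controls. Control 5 stood apart in choroid plexus markers, at 178 CPM against at most 15.05 CPM in the others.

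The set was abundant in this tissue. Of the 35 genes, 19 averaged 100 CPM or more, and summed over the set the libraries held 13943 to 16658 CPM. EphA receptors made up the largest share of that sum, with a median of 27.6% over the 12 libraries (range 23.3 to 31.5%). Dcc with Neo1 followed at 20.5%, the Robos at 19.9% and the Unc5 receptors at 13.2%. The ligands took less: ephrin-Bs 3.74%, Slits 3.57%, ephrin-As 1.53% and the netrins 0.464%. The receptors thus held more counts than the ligands, on a scale that also grows with gene length.

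**Figure D1:**
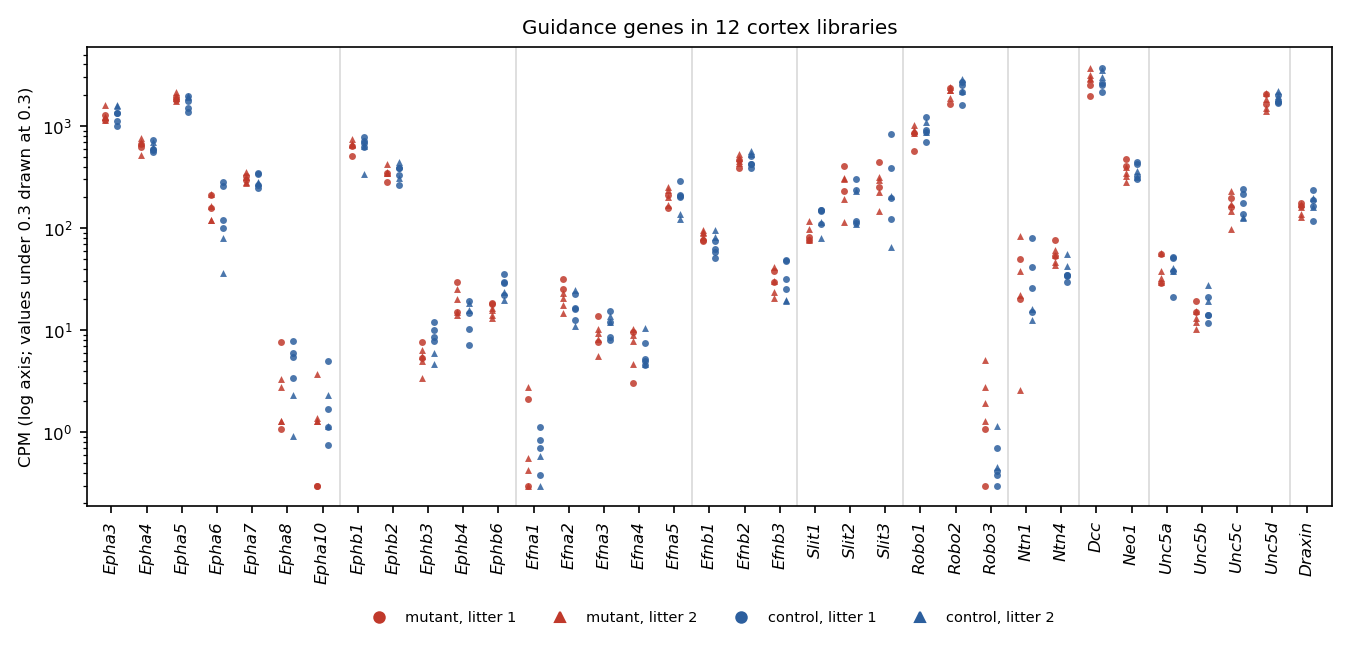
CPM of the 35 genes (log axis) in the 12 libraries, in order of family, with mutants in red, controls in blue, litter 1 as circles and litter 2 as triangles. Dcc, Robo2, Epha5 and Unc5d lie at the top, Dcc at 1952 CPM or more in every library, and Epha8, Epha10, Efna1 and Robo3 at the bottom, at 7.77 CPM or less.

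Compared per kilobase of merged exons, Dcc had the highest level, 219 CPM per kb, followed by Unc5d at 197, Epha3 at 150, Robo2 at 132 and Epha5 at 109. Whether introns were counted is not given in the sources used here and was not tested. Reads in no feature made up 4.89 to 6.83% of a library, in total RNA. Per kilobase of whole gene span, Efnb2 had the highest level, 10.7 CPM per kb, and Dcc ranked 10 of the 31 genes that passed the filter. The guidance genes are long, with a median span of 154 kb against 31.8 kb over all genes tested, so their order among each other depends on the length chosen.

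After the filter on low counts, 31 guidance genes remained among the 10678 genes tested for a genotype difference. By edgeR's quasi-likelihood test none of the 31 had an adjusted p under 0.05, and none passed with DESeq2 or limma-voom. Over all genes, 23 passed in edgeR, or 0.215%. At an unadjusted p under 0.05, 1 guidance gene passed, beside 8.78% of all genes. In 1 guidance gene the mutants and controls did not overlap, beside 1.26% of all genes, and both counts refer to Ephb6. The median log2 fold change of the 31 genes was 0.06, beside -0.00088 over all genes, with 16 positive and 15 negative. The 95% interval of the fold change tells which sizes of change the data exclude at this depth and spread. It lay within 2-fold of no change for 23 genes, within 0.5 on the log2 scale for 10, and reached past 2-fold for 8. In bulk tissue, fewer cells of a type and less RNA per cell cannot be told apart.

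**Figure D2:**
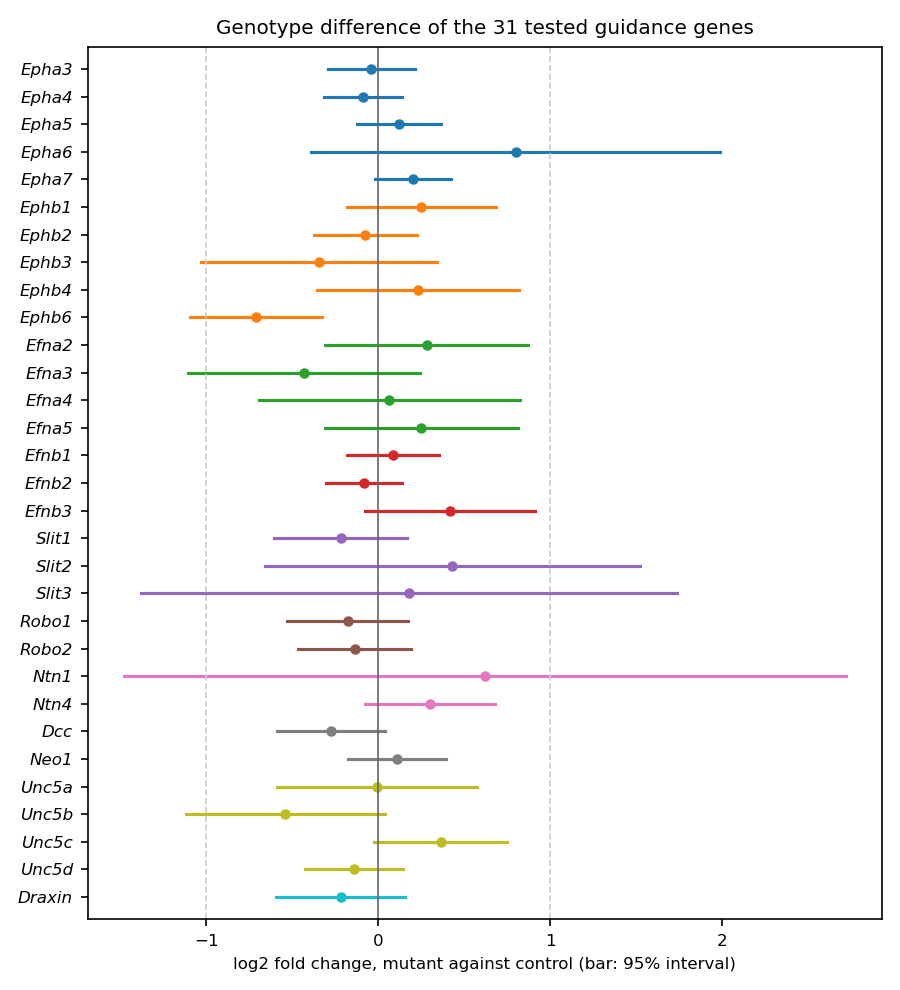
Log2 fold change of mutant against control for the 31 tested genes, with 95% intervals and colours by family. Ephb6 is the one gene whose interval excludes 0, and the intervals of Ntn1, Slit3, Epha6 and Slit2 are the widest.

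The EphA receptors differed little between genotypes where they were measured most precisely. Epha5, the EphA receptor with the highest CPM, was at 1742 CPM (lowest), 1894 (median) and 2143 (highest) in mutants and at 1374, 1833 and 1974 CPM in controls. The groups overlapped, and the log2 fold change was 0.12 (SE 0.116, 95% interval -0.13 to 0.37, adjusted p = 0.855). Epha3, Epha4 and Epha7, at mean levels of 1301, 644 and 300.1 CPM, had log2 fold changes of -0.04, -0.09 and 0.20. Each of their intervals lay within 0.5 of no change on the log2 scale.

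Epha6, a receptor used in retinal and cortical mapping, was the exception in spread. It was at 119, 161 and 213 CPM in mutants and at 35.9, 109 and 279 CPM in controls, so the controls lay both above and below all mutants. Its log2 fold change was 0.80 (SE 0.519, 95% interval -0.39 to 1.99, adjusted p = 0.752), the largest in the set. That value was 0.27 without control 6, 1.48 without control 1 and 0.23 without a litter term. Within litter 2 the 4 mutants, at 119 to 213 CPM, lay above controls 5 and 6, at 79.8 and 35.9 CPM. A fit of litter 2 alone gave a log2 fold change of 1.71 with SE 0.19 (adjusted p = 0.0104), in a setting in which 0.574% of 11154 genes passed. That fit rests on 2 control libraries. In litter 1 the means were 184 CPM in mutants and 189 CPM in its controls, and the test of the difference between litters did not pass (adjusted p = 0.773).

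Epha8 and Epha10 did not pass the filter, with 80 and 36 counts summed over the 12 libraries. Epha8 encodes a kinase-bearing EphA receptor, and Epha10 one whose kinase domain is inactive.

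Among the EphB receptors, Ephb6 gave the clearest separation of genotypes in the set. Ephb6 encodes an Eph receptor whose kinase domain is inactive, at chromosome 6, 41605482 to 41620509 (mm10, plus strand). Its level was 13.0 CPM in mutant 6, 14.1 in mutant 4, 15.8 in mutant 5, 16.3 in mutant 3, 18.1 in mutant 2 and 18.2 in mutant 1. Controls were at 19.7 CPM in control 5, 21.9 in control 2, 23.5 in control 6, 29.1 in control 4, 29.4 in control 3 and 35.5 in control 1. Every mutant lay below every control, in both litters, with a narrow gap between mutant 1 and control 5. The log2 fold change was -0.71 (SE 0.183, 95% interval -1.10 to -0.33), with an unadjusted p = 0.0011 and an adjusted p = 0.13, so it did not pass over all genes. Over 25 alternative settings the value stayed between -0.87 and -0.56 and the adjusted p between 0.0336 and 0.494. It passed in 1 setting, with neither litter nor sex in the model (-0.75, adjusted p = 0.0336), in which 1.32% of all genes passed. The gene rests on 507 counts over the 12 libraries.

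Ephb1, the EphB receptor with the highest CPM and a guide of axons in the visual system, was at 504, 654 and 748 CPM in mutants and at 339, 657 and 780 CPM in controls. The groups overlapped, and control 6 alone, at 339 CPM, lay below all mutants. The log2 fold change was 0.25 (SE 0.2, adjusted p = 0.814), and without control 6 it was -0.17. Ephb2, at a mean of 352 CPM, had a log2 fold change of -0.07, Ephb4, known from vessels, 0.23 at a mean of 17.03 CPM, and Ephb3 -0.34 at 6.86 CPM. None of these passed. The summed level of 10 endothelial markers was 68.1 to 108 CPM in mutants and 76.9 to 107 CPM in controls.

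Of the ephrin-As, Efna5, a ligand that patterns cortical areas and thalamic input, had by far the highest CPM. It was at 159, 205 and 253 CPM in mutants and at 124, 204 and 289 CPM in controls. The medians were close and the groups overlapped, at a log2 fold change of 0.25 with SE 0.253 (adjusted p = 0.866) that became 0.02 without control 6. Efna3 had the largest difference of the family: it was at 5.54, 8.71 and 13.8 CPM in mutants and at 7.91, 12.0 and 15.5 CPM in controls. Those groups overlapped too (log2 fold change -0.43, SE 0.321, adjusted p = 0.792), on 220 counts in all. Efna2 and Efna4 had log2 fold changes of 0.28 and 0.06. Efna4 shares its locus with the opposite-strand gene 4731419I09Rik, which held 72.8% as many counts. The strand setting of the counting is not given in the sources used here, so reads of the pair cannot be told apart. Efna1 had 16 counts in all and was not tested.

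The ephrin-Bs averaged from 31.3 CPM for Efnb3 to 467 CPM for Efnb2. Efnb2, a ligand of vessels and neurons, was at 386, 460 and 530 CPM in mutants and at 385, 463 and 574 CPM in controls, nearly superimposed. Its log2 fold change was -0.08 (SE 0.104, 95% interval -0.30 to 0.14, adjusted p = 0.911), and 0.08 without control 6. Efnb3, a ligand of midline and corticospinal guidance, was at 20.4, 30.1 and 41.1 CPM in mutants and at 19.3, 28.6 and 48.8 CPM in controls. The groups overlapped, and the log2 fold change of 0.42 (SE 0.235, adjusted p = 0.674) turned to -0.11 with neither litter nor sex in the model. Efnb1, a ligand of cortical progenitors, had a log2 fold change of 0.09. All 6 mutants lay above its control mean, but so did controls 4, 5 and 6, of which the last pair are the controls of litter 2.

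Slit2 and Slit3 were among the most variable genes of the set, and Slit1 was not. Slit3 was at 147, 273 and 444 CPM in mutants and at 64.9, 202 and 843 CPM in controls. Controls held both extremes, so the log2 fold change of 0.18 had an SE of 0.679 (95% interval -1.38 to 1.74, adjusted p = 0.989). It was 1.31 without control 1 and -0.50 without control 6. Slit2 was at 115, 267 and 401 CPM in mutants and at 109, 175 and 302 CPM in controls. Mutants 2, 3 and 5, at 401, 305 and 307 CPM, lay above every control, control 1 narrowly so at 302 CPM. The other mutants overlapped the controls (log2 fold change 0.43, SE 0.476, adjusted p = 0.891). Without control 6 the value was -0.04. Slit1, described in full only after its values were seen, is the Slit of cortical neurons and of the ventral forebrain. It had all 6 mutants below the control mean, at 76.6, 80.2 and 117 CPM against 80.0, 131 and 150.5 CPM. Its log2 fold change with litter and sex in the model was -0.22 (SE 0.181, adjusted p = 0.823).

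Both tested Robo receptors were abundant, and their genotypes overlapped widely. Robo2 was at 1638, 2274 and 2402 CPM in mutants and at 1620, 2361 and 2900 CPM in controls. Its range in mutants lay inside that of the controls, and the log2 fold change was -0.14 (SE 0.155, 95% interval -0.46 to 0.19, adjusted p = 0.89). Without control 6 it was 0.16. Robo1 was at 571, 871 and 1023 CPM in mutants and at 692, 892 and 1231 CPM in controls. Its groups overlapped as well, at a log2 fold change of -0.18 with SE 0.164 (adjusted p = 0.847), which was -0.02 without control 6. Robo3, the receptor of commissural neurons in the hindbrain and spinal cord, had 24 counts in all and was not tested.

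Of the netrins, Ntn4, a basement membrane netrin, was at 43.7, 54.0 and 75.6 CPM in mutants and at 29.4, 34.4 and 56.1 CPM in controls. All 6 mutants lay above the control mean, yet control 6, at 56.1 CPM, lay among them and control 5, at 42.8 CPM, just below. The log2 fold change was 0.30 (SE 0.181, 95% interval -0.08 to 0.68, adjusted p = 0.705), and in litter 2 alone it was -0.04. Ntn1, the classical netrin of floor plate and ventral forebrain, was at 2.57, 29.9 and 83.6 CPM in mutants and at 12.4, 21.1 and 79.1 CPM in controls. Mutants held both its lowest value, on 2 counts, and its highest value. The log2 fold change of 0.62 had an SE of 0.917 (adjusted p = 0.933). It was 0.02 without control 6 and 1.22 without mutant 4.

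Among the netrin receptors, Dcc, the attractive receptor, was at 1952, 2906 and 3666 CPM in mutants and at 2153, 2821 and 3706 CPM in controls. The ranges nearly coincided. The log2 fold change with litter and sex in the model was -0.27 (SE 0.149, 95% interval -0.59 to 0.04, adjusted p = 0.652), and it was -0.07 without control 1 and -0.51 without control 6. Neo1, the receptor for netrins and repulsive guidance molecules, had a log2 fold change of 0.11 at a mean of 366 CPM.

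Unc5d, a repulsive receptor of migrating cortical neurons that also binds Flrt proteins, was at 1410, 1741 and 2101 CPM in mutants and at 1662, 1859 and 2211 CPM in controls. Its groups overlapped (log2 fold change -0.14, SE 0.134, adjusted p = 0.852), and without control 6 the value was 0.01. Unc5b, an Unc5 receptor also known from vessels, was at 10.2, 14.2 and 19.2 CPM in mutants and at 11.7, 16.8 and 27.8 CPM in controls. It overlapped too, with the largest difference of its family at -0.54 (SE 0.276, 95% interval -1.12 to 0.04, adjusted p = 0.611). Unc5a and Unc5c had log2 fold changes of -0.0053 and 0.36.

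Draxin, the secreted Dcc and netrin ligand, was at 127, 163 and 176 CPM in mutants and at 118, 176 and 235 CPM in controls. All 6 mutants lay below the control mean but above control 2. The log2 fold change was -0.22 (SE 0.174, 95% interval -0.59 to 0.16, adjusted p = 0.814), and without control 1 it was -0.03. The opposite-strand gene Mad2l2 overlaps Draxin and held 18.6% as many counts.

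Litter was compared next, with sex and genotype in the model. None of the 31 guidance genes passed for litter 2 against litter 1, beside 1.31% of all genes (lowest adjusted p = 0.0897), and none passed with DESeq2 or limma-voom. At an unadjusted p under 0.05 there were 9, beside 15.4% of all genes. Of these, Epha3, Efnb1, Efnb2 and Dcc were higher in litter 2, and Ephb3, Ephb6, Efnb3, Neo1 and Unc5c were lower. Efnb1, at chromosome X, 99136130 to 99148991 (mm10, plus strand), was the 1 guidance gene whose litters did not overlap, beside 1.66% of all genes. It was at 51.2, 68.1 and 76.6 CPM in litter 1 and at 81.6, 89.99 and 96.6 CPM in litter 2, with a log2 difference of 0.40 (SE 0.113, adjusted p = 0.0897). All 3 ephrin-Bs are in this group of 9 genes, with Efnb2 at 0.27 and Efnb3 at -0.60, so the family did not share a direction. Dcc was at 1952, 2527 and 3706 CPM in litter 1 and at 2878, 3081 and 3666 CPM in litter 2, with a log2 difference of 0.39 (SE 0.132, adjusted p = 0.163). Sex was unevenly spread over litter and genotype, with 1 male among the mutants.

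The difference in genotype effect between litters was tested as an interaction. No gene of the 10678 passed, the guidance genes included, so the share called was 0%, and with DESeq2 or limma-voom none of the guidance genes passed. At an unadjusted p under 0.05 there were 6 guidance genes, Epha3, Ephb1, Efna5, Slit1, Ntn4 and Unc5b, beside 7.27% of all genes. Efna5 had the lowest p of the set (unadjusted p = 0.00132, adjusted p = 0.474). Its mean was 185 CPM in the mutants of litter 1 and 227 CPM in its controls, and 214 CPM in the mutants of litter 2 and 130.4 CPM in its controls. Both litter 2 controls, at 124 and 137 CPM, lay below every other library, and the interaction was 1.07 on the log2 scale (SE 0.27). Ntn4 went the other way. In litter 1 its mutants averaged 64.4 CPM and its controls 33.0 CPM, and in litter 2 they averaged 51.5 and 49.5 CPM (interaction -0.83, SE 0.266, adjusted p = 0.529). These terms rest on 2 mutants in litter 1 and 2 controls in litter 2.

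**Figure D3:**
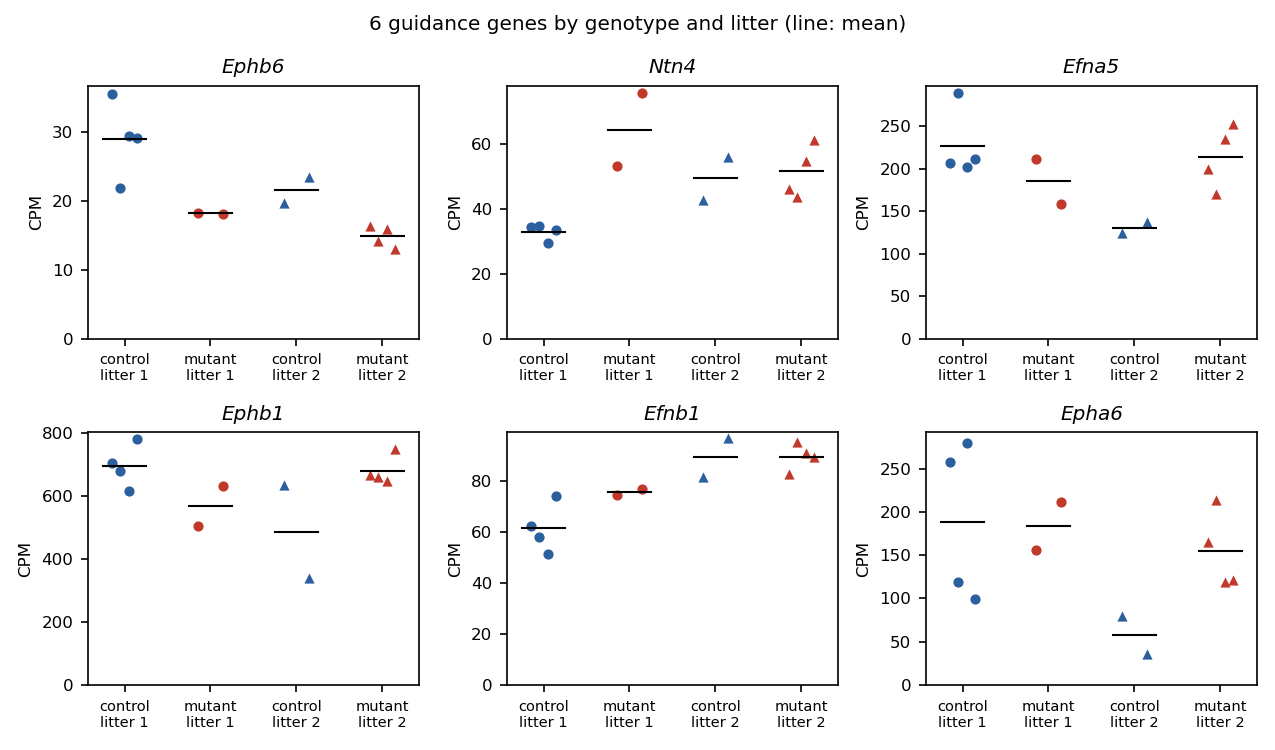
CPM of Ephb6, Ntn4, Efna5, Ephb1, Efnb1 and Epha6 in each library by genotype and litter, with a line at each mean. Ephb6 mutants lie below controls in both litters, Efnb1 is at 81.6 CPM or more in all of litter 2, and controls 5 and 6 are the lowest libraries of Epha6 and Efna5.

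The spread between libraries was larger for the guidance genes than for most genes. Their median biological coefficient of variation, the spread between libraries of like genotype, litter and sex beyond counting error, was 0.17, beside 0.126 over all genes tested, and 25 of 31 lay above that value. Ntn1 at 0.622, Slit3 at 0.475, Epha6 at 0.361 and Slit2 at 0.346 lay above the 95th percentile of all genes, 0.284. Ephb6, at 0.0808, had the lowest value of the set. Slit3 varied 13.0-fold between control 6 and control 1, and Ntn1 32.6-fold between mutant 4 and mutant 6, both within 1 genotype. The controls differ in litter and the mutants in sex, and the Ntn1 value of mutant 4 rests on 2 counts.

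**Figure D4:**
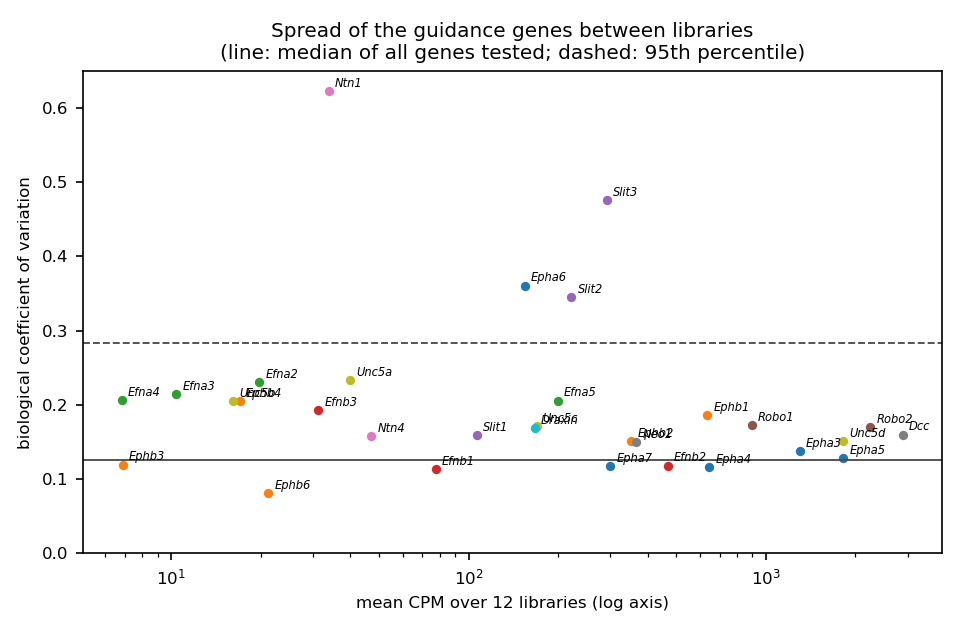
Biological coefficient of variation of the 31 tested genes against their mean CPM (log axis), with colours by family, a line at the median of all genes tested (0.126) and a dashed line at their 95th percentile (0.284). Ntn1, Slit3, Epha6 and Slit2 lie above the dashed line.

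Among these 4 variable genes, picked after their values were seen, all 6 pairs were correlated on log2 CPM over the 12 libraries, with permutation p-values adjusted over the 6. Epha6 and Slit3 moved together (Pearson r = 0.872, permutation p = 0.00034, adjusted p = 0.00204; Spearman rho = 0.839, permutation p = 0.00114, adjusted p = 0.00684). Without the 2 libraries farthest from the median of Epha6, r was 0.79, and within litters 1 and 2 it was 0.838 and 0.904. Slit2 and Slit3 also moved together (r = 0.781, permutation p = 0.00208, adjusted p = 0.00624; rho = 0.783, permutation p = 0.00382, adjusted p = 0.0115). That r was 0.744 without the 2 libraries farthest from the median of Slit2, and 0.83 and 0.802 within the litters. Neither choice of 2 libraries used Slit3, and control 1, its highest library, stayed in both. Epha6 and Slit2 did not pass (r = 0.603, permutation p = 0.0389, adjusted p = 0.0779; rho = 0.497, permutation p = 0.104, adjusted p = 0.208). The 3 pairs with Ntn1 had r between -0.0761 and 0.084. Control 1, highest for Slit3 at 843 CPM, also had the highest summed level of 7 Cajal-Retzius cell markers, 887 CPM, and of 7 thalamic markers, 968 CPM. Control 6, lowest for Slit3, was at 412 and 650.01 CPM. Other libraries did not follow this order: mutant 2, with Slit3 at 444 CPM and the highest Slit2, had the lowest Cajal-Retzius sum, 332 CPM, and control 5 had a thalamic sum of 926 CPM with Slit3 at 207 CPM. Over all libraries the Cajal-Retzius list, with 5 of 7 genes tested and none at 0 throughout, was at 332 to 629 CPM in mutants and 412 to 887 CPM in controls. The thalamic list, with 6 of 7 genes tested, was at 576 to 826 and 524 to 968 CPM. Reln was the largest part of the Cajal-Retzius sum, at a mean of 389 CPM in mutants and 532 CPM in controls. Rora was the largest part of the thalamic sum, at 385 and 343 CPM, while Gbx2 was at 0 in 8 libraries. Each sum thus leans on 1 gene and need not follow the cell type that names it. The part of these cell types in the result was not tested.

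Because Epha6, Slit2 and Slit3 move together in 2 of their 3 pairs, the 200 bases before their RefSeq start sites (GRCm38.p6) were read for 4 motifs on both strands, overlapping matches counted. These were the GC box GGGCGG, the nuclear receptor motif AGGTCA, the homeodomain motif TAATTA and the E-box CAGATG. The windows for Epha6 (chr16:60605532-60605731, minus strand) and Slit2 (chr5:47982955-47983137, plus strand, ending where the GENCODE gene begins) are shown 5′ to 3′ with matches in capitals.
Epha6: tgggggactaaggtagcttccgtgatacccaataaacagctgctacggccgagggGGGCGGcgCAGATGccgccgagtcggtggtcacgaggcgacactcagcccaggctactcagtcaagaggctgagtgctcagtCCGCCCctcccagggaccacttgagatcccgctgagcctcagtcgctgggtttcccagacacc
Slit2: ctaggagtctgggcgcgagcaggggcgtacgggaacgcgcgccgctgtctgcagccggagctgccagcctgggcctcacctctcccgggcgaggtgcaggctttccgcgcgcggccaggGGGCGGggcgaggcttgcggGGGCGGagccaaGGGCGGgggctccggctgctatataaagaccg
GC boxes occurred 2 times before Epha6, 3 times before Slit2 and 6 times before Slit3, whose window lies inside its GENCODE gene and is not shown. That motif is held by 31.05% of 32851 RefSeq promoter windows of this length. The 3 windows have a GC content of 63.5, 73 and 81.5%, and that share is not matched for it. Epha6 also held CAGATG once, found in 11.6% of windows. AGGTCA and TAATTA, in 11.4% and 3.73% of windows, had no match in the 3.

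The striatal marker score, the mean centred log2 CPM of the 5 tested striatal markers, was then added to the model, since ventral tissue next to the cortex is rich in some guidance cues. It ran from -1.95 in control 1 to 1.98 in control 2, and from -1.78 to 1.78 in mutants. Ntn1 rose and Draxin fell with the score, 2 of the 31 guidance genes, beside 1.27% of all genes. At an unadjusted p under 0.05 there were 5 guidance genes, beside 10.4% of all genes.

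Ntn1, at chromosome 11, 68209364 to 68400823 (mm10, minus strand), was at 83.6 CPM in mutant 6, 79.1 in control 2, 50.1 in mutant 1, 41.8 in control 3 and 37.9 in mutant 3, the 5 libraries with the highest scores. The other 7 libraries were at 2.57 to 25.9 CPM. Its level rose by 0.64 on the log2 scale per unit of score (SE 0.129, adjusted p = 0.0498). With the score in the model, the genotype difference of Ntn1 was -0.33 in place of 0.62, and neither passed. Draxin, at chromosome 4, 148098437 to 148130698 (mm10, minus strand), was lowest in control 2 at 118 CPM, mutant 6 at 127 and mutant 3 at 136, and highest in control 1 at 235. Mutant 1, second in score, was near the middle at 164 CPM. The level fell by 0.16 per unit (SE 0.0352, adjusted p = 0.034). Both calls sit near the threshold: without mutant 6, control 2 or control 3, in turn, neither passed, with adjusted p for Draxin of 0.0724, 0.397 and 0.0631 and for Ntn1 of 0.0581, 0.386 and 0.127. Ntn1 also missed the threshold without mutant 1, mutant 2, mutant 3 or control 4 (adjusted p from 0.054 to 0.0873), and Draxin without control 1 (adjusted p = 0.0796). Robo1 had 0.12 per unit (SE 0.0384, adjusted p = 0.19), Ephb2 -0.099 (SE 0.0362, adjusted p = 0.276) and Ephb4 -0.21 (SE 0.0792, adjusted p = 0.291). None of these passed.

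**Figure D5:**
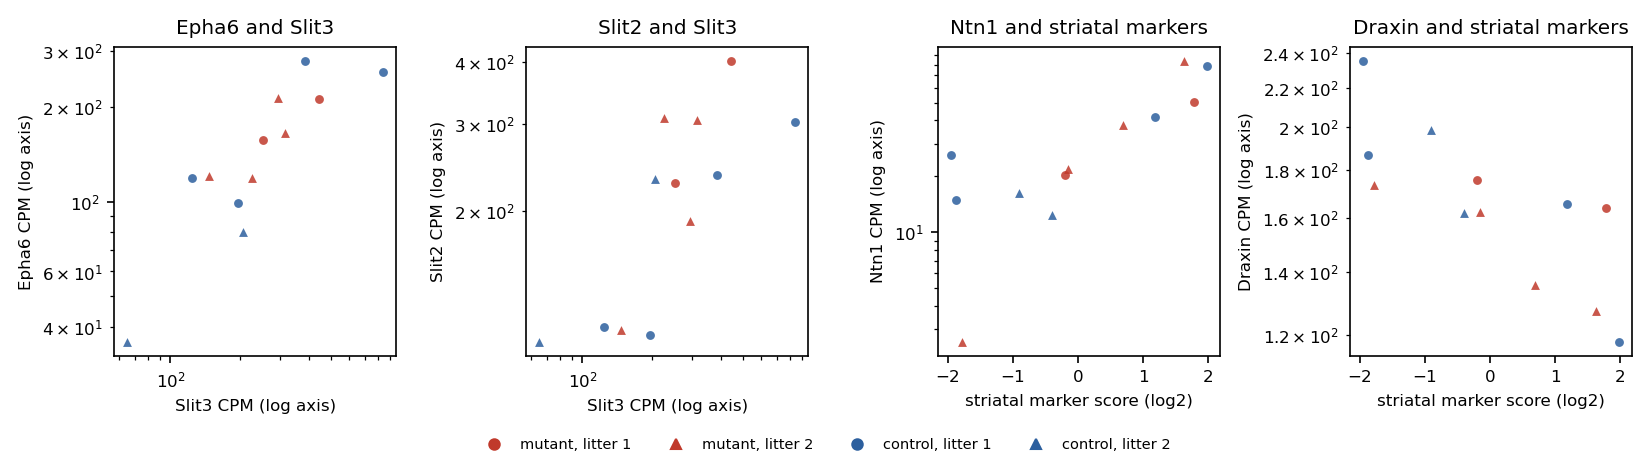
Left pair: Epha6 and Slit2 against Slit3, in CPM on log axes. Right pair: Ntn1 and Draxin in CPM (log axis) against the striatal marker score, with mutants in red, controls in blue, litter 1 as circles and litter 2 as triangles. Epha6 tends to rise with Slit3, with scatter (r = 0.872 on log2 CPM). Ntn1 rises from 2.57 CPM, a value that rests on 2 counts, to 83.6 CPM, and Draxin falls from 235 to 118 CPM.

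Other genes of these pathways, among them effectors, further receptors and ligands, were taken from 3 lists. The lists were chosen with earlier results of these data known, so the share called in a list is no test of its pathway. Of 18 tested Eph and ephrin signalling genes, including the Eph-bound exchange factors Vav2, Vav3 and Tiam1, none passed for genotype (0 lower, 0 higher, 2 at an unadjusted p under 0.05, against 8.78% of all genes), and the median log2 fold change was 0.0057. Of 20 tested Slit and Robo signalling genes, including the Slit-Robo GTPase-activating proteins Srgap1, Srgap2 and Srgap3, none passed either (2 unadjusted, median -0.05). Of 18 tested netrin signalling genes, 1 was lower and none higher, beside 0.215% of all genes called, 3 had an unadjusted p under 0.05, and the median was 0.02. That gene was Ablim1, which encodes an actin-binding LIM protein linked to netrin-dependent axon guidance. Ablim1 was at 81.8, 91.7 and 110.4 CPM in mutants and at 147, 191 and 288 CPM in controls. Every mutant lay below every control, and the log2 fold change was -0.83 (SE 0.123, adjusted p = 0.00961). It passed in 23 of 25 alternative settings, all but those without control 6 (adjusted p = 0.0546) and without mutants 1 and 4 (adjusted p = 0.103). In litter, Dscam, a netrin co-receptor, passed as higher in litter 2 (log2 difference 0.53, SE 0.124, adjusted p = 0.0443), where 1.31% of all genes passed. With the striatal score, with which 1.27% of all genes passed, Rgmb, a ligand of Neo1, rose by 0.20 per unit (SE 0.0465, adjusted p = 0.0362), and Ntng2, a membrane-anchored netrin-G, fell by 0.22 (SE 0.04, adjusted p = 0.00834).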

How the data were processed

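Raw counts per Ensembl gene were deposited by the authors as one file per library. Per the submitters' processing notes, the reads went through tools that include STAR 2.5.2a with genome build mm10, HTSeq 0.6.1p1, UMI-tools 0.5.3 (which handles molecular identifiers) and cutadapt 1.13. The sources used here give neither the counted feature type nor the strand setting. Closing entries that name no gene, such as reads in no feature or in several, made up 20.7 to 31.6% of a library and were left out of library sizes and tests. Of the gene identifiers, 47734 were matched to GENCODE M21 with their version and 3985 without it, and 193 had no match. No pair of libraries looked like a copy (lowest chi-square per degree of freedom 1.86).

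The guidance genes, the gene lists and the tests were chosen with earlier results of these data known. Counts were tested with edgeR 4.0.16 (R 4.3.3): TMM scaling, the low-count filter by genotype (minimum count 10), a model of litter, sex and genotype with 8 residual degrees of freedom, robust quasi-likelihood F tests and Benjamini-Hochberg adjustment over all genes tested. The SE is the absolute log2 fold change divided by the square root of F. The interaction and the striatal score (log2 CPM with prior count 2) were added as further terms. Code was tested on simulated data. Alternatives used DESeq2 1.42.0, limma-voom 3.58.1, other scaling, filters, covariates and subsets, and each library left out. Correlations used 100000 permutations. Values in both groups were given for genes that passed any of the 4 tests, those with an unadjusted p under 0.05 for genotype, and in each family the gene with the highest mean CPM and the one with the largest log2 fold change. Genes that did not pass the filter were given by their counts.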

Additional observations from a re-analysis of the deposited data

Results flagged for a closer look

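Ephb1 in control 6 was at 339 CPM, while the other 5 controls were at 618 to 780 CPM, and the gap took up a 0.632 share of the range of the controls. Of 36 groups of 6 libraries looked at in this way, 1 was set apart, and chance alone sets apart about 1 in 20, or 1.8 here. Without control 6 the log2 fold change of Ephb1 was -0.17 in place of 0.25, and neither value passed.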

How the results depend on the processing

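For genotype, the count of 0 guidance genes became 1 with neither litter nor sex in the model (Ephb6) and 1 with litter 2 alone (Epha6), and stayed 0 with DESeq2, limma-voom, the other settings and each library left out. For litter, the count of 0 became 4 without the low-count filter (Dcc, Efnb1, Efnb3 and Unc5c), and ran from 0 to 1 when libraries were left out, with 1 (Efnb1) without control 4. For the interaction it became 2 without the filter (Efna5 and Ephb1). For the striatal score, the count of 2 became 1 (Draxin) in edgeR with size factors of the type DESeq2 uses. With DESeq2 itself and with limma-voom it stayed 2 (Draxin and Ntn1). Without the filter it became 4 (Draxin, Ntn1, Robo1 and Slit3). When libraries were left out, it ran from 0 (without mutant 6, control 2 or control 3) to 3 (Ephb2 added, without mutant 4). The cause was not tested. Over all genes the genotype count of 23 depended more on the setting, from 0 without mutants 1 and 4 and 6 without mutant 2 to 95 with DESeq2, 141 with neither term and 261 without the filter. Of the 18 guidance genes named by the rule, 9 kept the sign of their genotype difference in all 25 alternatives, and Slit3, in 20, kept it least often. The widest ranges were -0.50 to 1.31 for Slit3 and -0.33 to 1.23 for Ntn1. No paired analysis was possible because within a litter no mutant and control share a number in the labels. Replicate numbers here only name libraries, and litter, which holds both genotypes, was a term of the reported model. Precision is limited by the shallowest libraries (643197, 794716 and 924066 counts, all mutants), by genes with few counts such as Ephb3 and Efna4 (158 each), and by 2 controls in litter 2. The intervals of 8 genes, those of Ntn1, Slit3, Epha6 and Slit2 the widest, reach past 2-fold, so they do not exclude a change of that size.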
